A study of Mus musculus with 6 samples.

Results

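The genes described here are those that move calcium in and out of the cytosol of a smooth muscle cell, together with the BK potassium channel that calcium opens. They were chosen by name as 10 genes, *Cacna1c*, *Kcnma1*, *Kcnmb1*, *Itpr1*, *Itpr3*, *Atp2a2*, *Atp2b1*, *Stim1*, *Orai1* and *Trpc1*, and 9 of the 10 had a row among the 18112 genes of the expression table. *Kcnmb1* had no row under its symbol or its NCBI Gene number, so its expression was not analysed here.

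RNA was sequenced from primary aortic vascular smooth muscle cells (VSMCs), which by the methods were isolated from the mouse aorta by enzymatic digestion. There were 3 Smyd2 fl/fl and 3 Smyd2 SMC-/- libraries, sequenced on the BGISEQ-500 platform. They are called control and knockout libraries 1, 2 and 3 by the replicate numbers of their labels. All mice were of the C57BL/6 strain and carried 2 floxed *Smyd2* alleles. The Smyd2 SMC-/- animals also carried Cre driven by the *Tagln* (SM22α) promoter, so that deletion depends on a promoter active in smooth muscle, and the methods name no Cre in the littermate controls. The labels give cells at passage 6 in medium with 10% serum, a Promega extraction kit and a TruSeq library kit, whereas the methods give an earlier passage, overnight starvation, TRIzol and the library steps of the BGI platform. The methods put the mice at 8 to 10 weeks of age when cells were taken. Because the labels do not say that the libraries of a group came from separate cultures or animals, the p-values below measure only the spread between these libraries, which may be technical.

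Contraction of a VSMC follows a rise in cytosolic calcium, which enters through L-type channels and store-operated channels or is released from the sarcoplasmic reticulum through inositol trisphosphate (IP3) receptors. Pumps in the reticulum and in the plasma membrane bring it down again. Calcium released close to the membrane opens BK channels, whose potassium current hyperpolarizes the cell and closes the L-type channels.

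Values are FPKM, the fragments of a gene scaled to its transcript length and to the fragments of the library, so that levels can be set side by side between genes. The spacing of low FPKM values gave an estimated depth of 19000000, 19800000 and 19900000 fragments in control libraries 1, 2 and 3, and of 17200000, 19400000 and 19200000 fragments in knockout libraries 1, 2 and 3. Differences were tested with limma on log2(FPKM + 1) in the 12565 genes whose mean reached 0.5 FPKM, and a gene was called at a Benjamini-Hochberg adjusted p under 0.05 over all of them. Log2 differences are knockout minus control on that scale, which understates the difference of genes with low FPKM. With 3 libraries against 3, the smallest p of an exact two-sided permutation test is 0.1.

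*Smyd2*, the targeted gene, a lysine methyltransferase on chr1:189880492-189922363 of GRCm38, was read first. It stood at 7.87, 3.10 and 3 FPKM in control libraries 1, 2 and 3 and at 1.67, 0.40 and 0.80 FPKM in knockout libraries 1, 2 and 3. No knockout library reached the lowest control, although the gene-level value also counts the exons that the deletion leaves in place. The log2 difference was -1.48, with a limma adjusted p of 0.105, or 0.0189 with the replicate number entered as a block.

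The replicate 1 libraries stood apart from the others in both genotypes, along a first principal component with 50.2% of the variance. Control 1 lay at -58.6 on that component against 3.11 and 2.74 for replicates 2 and 3, and knockout 1 lay at -25.4 against 39.1 and 39.1. Some cell type markers moved with the replicate number, not all in one direction. The summed level of 10 fibroblast and adventitial markers, all of them tested, was 378, 1045 and 904 FPKM in control libraries 1, 2 and 3 and 159, 741 and 725 FPKM in knockout libraries 1, 2 and 3. *Dcn*, the most abundant of them over the libraries, was at 13.9 and 25.6 FPKM in the replicate 1 libraries and between 257 and 383 FPKM in the other 4. *Lum*, *Col14a1*, *Pi16*, *Ly6a* and *Cd34* were also lowest in replicate 1 of both genotypes. *Dpt* went the other way, at 144, 90.3 and 65.5 FPKM in the controls and at 3.31, 1.15 and 0.63 FPKM in the knockouts. *Pdgfra* and *Serpinf1* were lowest of the controls in control 1 but highest of the knockouts in knockout 1, and *Fbln1* the reverse. Of this list, limma called *Dpt* and *Serpinf1* lower and *Fbln1* higher in the knockouts, and with the replicate block also *Cd34* and *Ly6a* lower and *Col14a1* higher (limma adjusted p = 0.0269, 0.0404 and 0.00320). *Col14a1* stood at 6.49, 24.7 and 26.8 FPKM in the controls and at 64.8, 160 and 197 FPKM in the knockouts, and *Cd34* at 71.1, 98.2 and 95 FPKM against 3.39, 23.6 and 15.9 FPKM, while the groups of *Ly6a* overlapped.

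Among 10 smooth muscle markers, *Acta2* stood at 761, 682 and 683 FPKM in the controls and at 201, 268 and 262 FPKM in the knockouts, and was the only one of the 7 tested that limma called, without or with the block. The summed level of the list, most of it *Acta2*, was 925, 827 and 820 FPKM in the controls and 265, 437 and 387 FPKM in the knockouts. Without both replicate 1 libraries limma called *Acta2* and *Actg2* lower and *Lmod1* and *Mylk* higher. *Lmod1* stood at 3.28, 2.71 and 2.83 FPKM in the controls and at 1.22, 5.44 and 6.02 FPKM in the knockouts, and *Mylk* at 1.02, 3.62 and 3.75 FPKM against 1.72, 7.14 and 9.68 FPKM, both with overlapping groups. *Myh11*, *Myocd* and *Des*, which mark differentiated smooth muscle, were near 0, with no library above 0.48 FPKM. Endothelial markers summed to 172, 87.1 and 90.5 FPKM in the controls and 96.7, 75.6 and 74.4 FPKM in the knockouts, nearly all of it *Eng*, while 3 of the 10, *Cdh5*, *Tie1* and *Nos3*, stayed under 0.1 FPKM in every library. *Kdr*, the other tested gene of that list beside *Eng*, stood at 0.47, 0.58 and 0.84 FPKM in the controls. In the knockouts *Kdr* stood at 0.96, 5.15 and 2.96 FPKM. Its groups did not overlap (limma adjusted p = 0.186, or 0.00260 in replicates 2 and 3 alone). *Pecam1* of the same list went the other way, also without overlap, but its mean was under the minimum of 0.5 FPKM. It stood at 0.56, 0.88 and 0.92 FPKM in the controls and at 0.12, 0.18 and 0 FPKM in the knockouts. In a fit with no minimum its log2 difference was -0.70 (limma adjusted p = 0.0595, or 0.0404 in replicates 2 and 3 alone). Macrophage and leukocyte markers summed to between 18.3 and 42.6 FPKM in a library, most of it *Cd14*, with *Ptprc*, *Adgre1* and *Itgam* at or near 0. Neural and Schwann markers summed to between 24.4 and 45.8 FPKM, most of it *Tubb3*. From these lists limma called *Csf1r* and *S100b* higher and *Lyz2* lower in replicates 2 and 3 alone (limma adjusted p = 0.0192, 0.000832 and 0.00294). Cardiac muscle markers summed to 29.9, 8.36 and 8.16 FPKM in the controls and to 3.75, 4.34 and 4.64 FPKM in the knockouts, most of it *Tnnt2*. The groups of *Tnnt2* did not overlap (limma adjusted p = 0.173, or 0.00406 in replicates 2 and 3 alone). Adipocyte markers summed to 119 FPKM in knockout 1, nearly all of it *Fabp4*, against at most 6.27 FPKM in the other libraries. Pericyte markers summed to between 99.3 and 267 FPKM, most of it *Pdgfrb*, and *Notch3* of that list was called higher in the knockouts. The other tested genes of that list were not called without or with the block. Their log2 differences were 0.81 for *Cspg4*, without overlap, and -1.30 for *Rgs5* and -0.08 for *Pdgfrb*, with overlapping groups. The part of cell makeup in the results below was not tested, and in bulk samples fewer cells of a type and less RNA per cell cannot be told apart.

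Across the 9 measured genes, *Atp2a2* had the highest mean level in both genotypes and *Kcnma1* the lowest in the controls. In the controls the mean was 83.9 ± 25.2 FPKM (SD, n = 3) for *Atp2a2*, 32.5 ± 5.18 FPKM for *Stim1*, 22.2 ± 2.33 FPKM for *Itpr3* and 21.2 ± 5.33 FPKM for *Atp2b1*. *Cacna1c*, *Itpr1* and *Orai1* followed at 10.5 ± 2.25, 9.44 ± 2.84 and 9.21 ± 1.6 FPKM, and these 3 lay within their spread of one another, as did *Itpr3* and *Atp2b1*. *Trpc1* and *Kcnma1* were at 0.227 ± 0.116 and 0.0633 ± 0.0462 FPKM, below the minimum of 0.5 FPKM over the 6 libraries, and were read from a fit of all 18112 genes with no minimum. In the knockouts the means of *Stim1*, *Itpr3*, *Atp2b1* and *Cacna1c* lay close together, at 22.1 ± 1.23, 19.1 ± 0.503, 18.2 ± 4.20 and 16.6 ± 4.42 FPKM, and *Orai1*, at 13.6 ± 3.42 FPKM, stood above *Itpr1*, at 9.74 ± 3.33 FPKM. *Kcnma1* and *Trpc1*, at 0.727 ± 0.445 and 0.767 ± 0.485 FPKM in the knockouts, lay within their spread of each other.

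**Figure D1:**
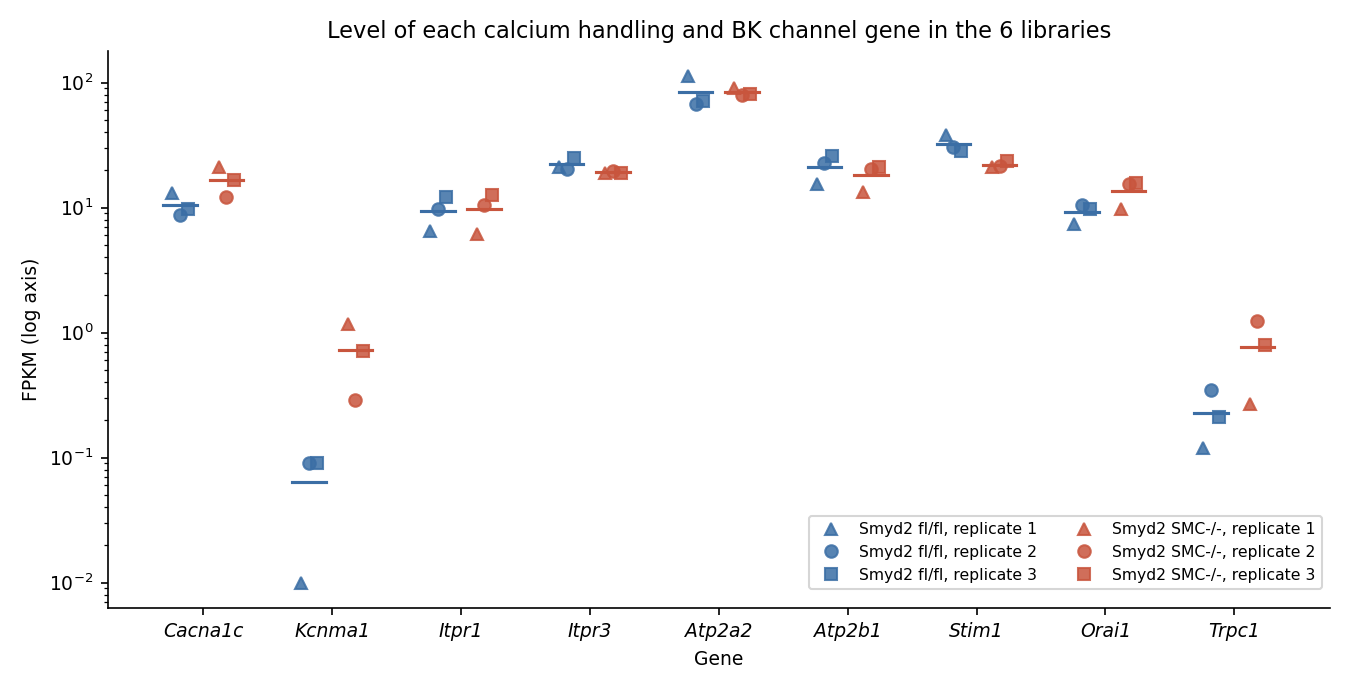
FPKM on a log axis of the 9 measured calcium handling and BK channel genes in each library, with Smyd2 fl/fl in blue, Smyd2 SMC-/- in red, the replicate number given by the symbol and the group mean by a bar. The groups are apart for *Kcnma1* (highest Smyd2 fl/fl library 0.09, lowest Smyd2 SMC-/- library 0.29 FPKM), *Stim1* and *Itpr3*, and overlap for the other 6 genes.

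In the genotype comparison limma called 0 of the 7 tested genes, against 2.44% of all tested genes, with 1.21% lower and 1.23% higher. The count was also 0 when the methods' stricter limits were applied, more than a 2-fold difference with adjusted p under 0.01, by which 0.422% of all tested genes were called. At an unadjusted p under 0.05 the count was 2 of 7, *Stim1* and *Cacna1c*, against 20.3% of all tested genes. Under the replicate block 1 of 7 was called, *Cacna1c*, against 10.4% of all tested genes and 4.72% in its direction, and the unadjusted count was 3 of 7, against 32.1% of all tested genes. Groups did not overlap for 2 of the 7, *Itpr3* and *Stim1*, against 28.1% of all tested genes, and for *Kcnma1* among all 9, against 23% of all genes in the table. The median log2 difference was 0.03 over the 7 genes and -0.02 over all tested genes, with 4 of the 7 above 0. At these sizes the counts of the 7 genes were near those of the tested genes as a whole.

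*Cacna1c* (Gene number 12288, chr6:118587240-119196418) encodes the pore-forming subunit of the L-type calcium channel, the main voltage-gated entry route for calcium in arterial smooth muscle. It stood at 13.1, 8.75 and 9.77 FPKM in control libraries 1, 2 and 3 and at 21.0, 12.2 and 16.6 FPKM in knockout libraries 1, 2 and 3. Each knockout library was above the control library of the same number, but the groups overlapped, since control 1 lay above knockout 2. The mean was 1.58-fold higher in the knockouts, with a log2 difference of 0.60 (standard error 0.235, 95% interval 0.03 to 1.16) and a limma adjusted p of 0.224. With the replicate block the standard error was 0.110 and limma's adjusted p 0.0402, within a range of 0.0264 to 0.485 over the settings tried. In both genotypes replicate 1 held the highest level, 1.41-fold and 1.46-fold that of the mean of replicates 2 and 3.

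The other voltage-gated calcium channel subunits of the table gave 15 genes, of which 6 reached the minimum. None of these 6 was called without the block, while *Cacna1a*, the pore-forming subunit of P/Q-type channels, was called higher with it. *Cacna1a* stood at 4.79, 1.52 and 1.78 FPKM in the controls and at 14.2, 3.39 and 3.84 FPKM in the knockouts, a log2 difference of 1.00 with a limma adjusted p of 0.373 without the block and 0.0376 with it. Without knockout 1 the log2 difference of *Cacna1a* was 0.42. In replicates 2 and 3 alone it was 0.80, with a limma adjusted p of 0.00644. *Cacna1a* shares with *Cacna1c* a high value in both replicate 1 libraries. *Cacna2d1*, an auxiliary subunit that carries the channel to the membrane, had 3.90, 4.54 and 5.06 FPKM against 12.3, 6.87 and 5.72 FPKM, with groups that did not overlap and a limma adjusted p of 0.220. *Cacnb3*, an intracellular subunit and the most abundant of the list, had 75.9, 78.9 and 74.6 FPKM against 58.6, 58.8 and 60.2 FPKM, with a limma adjusted p of 0.123, or 0.0304 in replicates 2 and 3 alone. *Cacna1c* held 61.5% ± 3.94 of the FPKM of the 8 pore-forming subunits in the table in the controls and 63.8% ± 8.01 in the knockouts (SD, n = 3; exact permutation p = 0.6). *Cacna1d*, the other L-type subunit known from vessels, did not exceed 0.05 FPKM in any library.

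*Kcnma1* (Gene number 16531, chr14:23289431-24014491) encodes the pore-forming α subunit of the BK channel, which opens on depolarization and on binding of calcium. Its level was 0.01, 0.09 and 0.09 FPKM in control libraries 1, 2 and 3, and 1.18, 0.29 and 0.71 FPKM in knockout libraries 1, 2 and 3. At the estimated depth these values correspond to about 0.819, 7.69 and 7.72 fragments against 87.5, 24.3 and 58.8 fragments. All 3 knockout libraries were above all 3 control libraries, and replicate 1 was the lowest of its group in the controls and the highest in the knockouts. The mean was 0.0633 ± 0.0462 FPKM in the controls and 0.727 ± 0.445 FPKM in the knockouts (SD, n = 3), an 11.5-fold ratio that rests on few fragments. In the fit with no minimum, in which 1.36% of 18112 genes were called, the log2 difference was 0.67 (standard error 0.190, 95% interval 0.20 to 1.13) with a limma adjusted p of 0.164, and the exact permutation p was 0.1. No setting tried gave a call, with limma adjusted p from 0.0728 to 0.405, while the log2 difference became 1.24 after rescaling to TPM and 2.22 with a pseudocount of 0.1.

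*Kcnmb1*, the β1 subunit that raises the calcium sensitivity of the channel in smooth muscle, was without a row, so that no ratio of β1 to α could be formed. Of the BK list, 4 further subunits were in the table and none reached the minimum. *Kcnmb4*, another β subunit, had 0.37, 0.15 and 0.21 FPKM in the controls and 0.22, 0.24 and 0.13 FPKM in the knockouts, with overlapping groups. *Kcnmb2* did not exceed 0.12 FPKM, *Lrrc38* 0.09 FPKM and *Lrrc55* 0.07 FPKM. Of 16 other potassium channel genes on a fixed list, *Kcna5*, *Kcnq1* and *Kcnj8* had no row under their symbols. None of the 13 with a row reached the minimum, and these 13 summed to between 0.61 and 1.44 FPKM in a library.

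*Itpr1* (Gene number 16438, chr6:108213096-108551109) and *Itpr3* (Gene number 16440, chr17:27057304-27122223) encode IP3 receptors, the channels that release calcium from the reticulum after stimulation of receptors coupled to phospholipase C. *Itpr1* stood at 6.48, 9.70 and 12.1 FPKM in the controls and at 6.12, 10.4 and 12.7 FPKM in knockout libraries 1, 2 and 3. The libraries of one number lay close together across genotypes, and the replicate 1 libraries were lowest, at 0.593-fold and 0.530-fold of the mean of replicates 2 and 3. Its log2 difference was 0.03, with a 95% interval of -0.71 to 0.77 that the block narrowed to -0.25 to 0.30 (limma adjusted p = 0.973 and 0.885).

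*Itpr3* stood at 21.3, 20.5 and 24.9 FPKM in the controls and at 18.9, 19.7 and 18.8 FPKM in the knockouts. The groups did not overlap, by a margin of less than 1 FPKM between the lowest control and the highest knockout library, and *Itpr3* was the member least tied to the replicate number, with replicate 1 at 0.938-fold and 0.979-fold of the others. The mean was 0.860-fold that of the controls, with a log2 difference of -0.20 (standard error 0.125), a limma adjusted p of 0.426 and an exact permutation p of 0.1. The log2 difference of *Itpr3* was -0.12 without control 3 and -0.09 after rescaling to TPM.

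*Itpr3* was the most abundant of the 3 IP3 receptors in all 6 libraries, with 63.1% ± 4.58 of their summed FPKM in the controls and 59.5% ± 8.56 in the knockouts (SD, n = 3). *Itpr1* held 26.3% ± 4.75 and 29.3% ± 6.40 (SD, n = 3), and *Itpr2*, the third receptor, ranged from 2.48 to 4.91 FPKM. Both shares overlapped between the genotypes (exact permutation p = 0.5 each). The ryanodine receptors *Ryr1*, *Ryr2* and *Ryr3*, the other release channels of the reticulum, did not exceed 0.04 FPKM in any library. None of the 5 other tested genes of the release list was called without or with the block.

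*Atp2a2* (Gene number 11938, chr5:122453513-122502225) encodes SERCA2, which pumps calcium back into the reticulum. It stood at 113, 67.7 and 71.0 FPKM in the controls and at 90.6, 79.1 and 81.8 FPKM in knockout libraries 1, 2 and 3. Control 1 was the highest library and the other control libraries were the lowest, so that the knockout values lay inside the range of the controls. The means were equal within 0.1 FPKM, at 83.9 ± 25.2 and 83.8 ± 6.02 FPKM (SD, n = 3), and the log2 difference was 0.04 (95% interval -0.47 to 0.54, limma adjusted p = 0.950). In replicates 2 and 3 alone the log2 difference was 0.21, with a limma adjusted p of 0.155, and in the replicate 1 pair it was -0.31. *Atp2a2* made up at least 99.4% of the FPKM of the SERCA family in every library, and phospholamban (*Pln*), the inhibitor of SERCA2, did not exceed 0.02 FPKM.

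*Atp2b1* (Gene number 67972, chr10:98914406-99026143) encodes PMCA1, a calcium pump of the plasma membrane. It stood at 15.3, 22.6 and 25.7 FPKM in the controls and at 13.4, 20.3 and 20.9 FPKM in knockout libraries 1, 2 and 3. Each knockout library lay below the control library of the same number, while the groups overlapped and replicate 1 was lowest in both, at 0.635-fold and 0.648-fold of the others. A difference of one sign in all 3 pairs was seen in 55.1% of all tested genes. The log2 difference was -0.21 (95% interval -0.80 to 0.39, limma adjusted p = 0.709), and with the block the interval was -0.45 to 0.04 and limma's adjusted p 0.206. Leaving out 1 library moved the difference of *Atp2b1* between -0.41 (without control 1) and -0.01 (without knockout 1), and rescaling to TPM gave -0.09. *Atp2b1* held 99.5% ± 0.142 of the FPKM of the 4 PMCA genes in the controls and 98.0% ± 0.877 in the knockouts (SD, n = 3), shares that did not overlap (exact permutation p = 0.1, adjusted p = 0.4 over 8 shares). The remainder was mostly *Atp2b4*, at 0.06, 0.16 and 0.11 FPKM in the controls and 0.20, 0.62 and 0.27 FPKM in the knockouts.

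In the pump and exchanger lists *Slc24a3* and *Tmem165* were called with the replicate block and under some other settings, but not in the fit of genotype alone. *Slc24a3*, a sodium, calcium and potassium exchanger, stood at 2.64, 3.16 and 3.01 FPKM in the controls and at 5.27, 6.89 and 8.25 FPKM in the knockouts. Every knockout library was above every control library, with a log2 difference of 0.97 and a limma adjusted p of 0.0553 without the block and 0.0283 with it. *Tmem165*, a Golgi cation transporter, stood at 28.4, 38.8 and 33.4 FPKM against 54.9, 51.6 and 54.3 FPKM, with a log2 difference of 0.67 and a limma adjusted p of 0.0662 and 0.0418. Its groups did not overlap either. Both genes were also called after rescaling to TPM (limma adjusted p = 0.0392 for *Slc24a3* and 0.0342 for *Tmem165*) and in replicates 2 and 3 alone (0.00136 and 0.00992), and *Slc24a3* without knockout 1 (0.0229). The sodium-calcium exchanger *Slc8a1* had 0.07, 0.44 and 0.33 FPKM in the controls and 0.13, 2.65 and 2.98 FPKM in the knockouts, so that the replicate 1 library of each genotype was the lowest and the groups overlapped (limma adjusted p = 0.313, and 0.112 with the block). In replicates 2 and 3 alone *Slc8a1* was called, with a log2 difference of 1.46 and a limma adjusted p of 0.000445.

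*Stim1* (Gene number 20866, chr7:102267806-102437319) encodes the calcium sensor of the reticulum membrane, which opens Orai channels when the store empties. It stood at 38.4, 30.7 and 28.5 FPKM in control libraries 1, 2 and 3 and at 21.2, 21.5 and 23.5 FPKM in knockout libraries 1, 2 and 3. All 3 knockout libraries were below all 3 control libraries and lay close to one another, whereas control 1 stood above its group. The mean was 32.5 ± 5.18 FPKM in the controls and 22.1 ± 1.23 FPKM in the knockouts (SD, n = 3), a ratio of 0.678. The log2 difference was -0.53 (standard error 0.146, 95% interval -0.88 to -0.18), with a limma adjusted p of 0.116, the lowest among the 7 tested members, and of 0.0691 under the block. In replicates 2 and 3 alone the log2 difference was smaller, -0.38, and limma's adjusted p 0.0280, within a range of 0.0277 to 0.301 over the settings tried. The difference within the pairs was -0.83, -0.49 and -0.27 on the log2 scale for replicates 1, 2 and 3.

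*Orai1* (Gene number 109305, chr5:123015074-123030456) encodes the plasma membrane channel that STIM1 opens. It stood at 7.42, 10.5 and 9.71 FPKM in the controls and at 9.67, 15.5 and 15.7 FPKM in knockout libraries 1, 2 and 3. Each knockout library was above the control of the same number, the replicate 1 libraries were lowest in both genotypes, and the groups overlapped because of knockout 1. The mean was 1.48-fold higher, with a log2 difference of 0.50 (standard error 0.227, 95% interval -0.04 to 1.04) and a limma adjusted p of 0.280. With the block the interval was 0.21 to 0.79 and limma's adjusted p 0.0562, above the threshold. In replicates 2 and 3 alone the log2 difference was 0.58 with a limma adjusted p of 0.00630, within a range of 0.00630 to 0.618 over the settings tried.

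*Stim1* and *Orai1*, partners in store-operated entry, were called neither in the fit of genotype alone nor with the replicate block. Without the replicate 1 libraries 3 of the 7 tested members were called, *Stim1* lower and *Cacna1c* and *Orai1* higher, in a comparison in which 29% of all tested genes were called, 17.2% lower and 11.9% higher. With replicate 1 blocked against the other replicates, a fit added after the data were seen, the same 3 genes were called, against 20.3% of all tested genes, 11.1% lower and 9.17% higher. *Stim1* held 72.6% ± 2.91 of the summed FPKM of *Stim1* and *Stim2* in the controls and 67.2% ± 2.54 in the knockouts (SD, n = 3), without overlap (exact permutation p = 0.1, adjusted p = 0.4 over 8 shares). *Stim2*, a paralog that responds to smaller losses of store calcium, ranged from 9.73 to 12.4 FPKM, with overlapping groups and a limma adjusted p of 0.558. *Orai1* held 32.7% ± 2.57 of the FPKM of the 3 Orai genes in the controls and 35.6% ± 7.77 in the knockouts (SD, n = 3; exact permutation p = 0.6).

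*Orai2*, a further channel subunit, stood at 11.8, 7.82 and 7.69 FPKM in the controls and at 18.1, 12.2 and 12.2 FPKM in the knockouts. Its groups did not overlap, and the log2 difference of 0.59 had a limma adjusted p of 0.221 without the block and 0.0344 with it. *Orai3* had 5.63, 13 and 10.5 FPKM against 8.46, 10.5 and 11.8 FPKM, with overlapping groups. *Saraf*, which limits store-operated entry and was the most abundant gene of this list, had 66.3, 69.5 and 63.4 FPKM against 80.1, 75.8 and 77.0 FPKM, without overlap but with a limma adjusted p of 0.303.

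**Figure D2:**
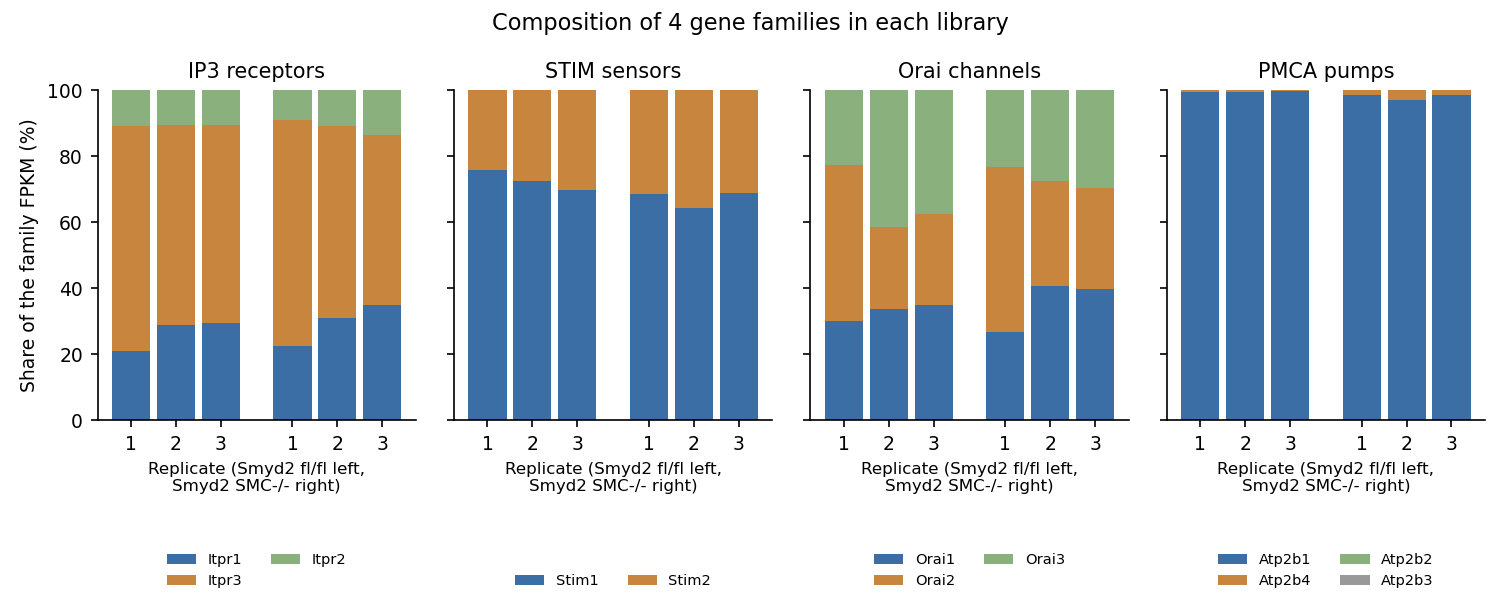
Share of the summed FPKM of a gene family, in percent, held by each gene in each library, for IP3 receptors, STIM sensors, Orai channels and plasma membrane calcium (PMCA) pumps, with Smyd2 fl/fl replicates on the left of each panel and Smyd2 SMC-/- on the right. *Itpr3*, *Stim1* and *Atp2b1* hold the largest share of their family in every library, and the *Stim1* share averages 72.6% on the left and 67.2% on the right.

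*Trpc1* (Gene number 22063, chr9:95705082-95750375) encodes a cation channel subunit linked to store depletion and receptor stimulation. It stood at 0.12, 0.35 and 0.21 FPKM in the controls and at 0.27, 1.24 and 0.79 FPKM in knockout libraries 1, 2 and 3, about 8.35, 25.4 and 15.3 fragments against 17, 88.1 and 55.5. Each knockout library was above the control of the same number, and knockout 1 lay between the control libraries, so that the groups overlapped. The mean was 3.38-fold higher, and in the fit with no minimum the log2 difference was 0.49 (standard error 0.219, 95% interval -0.04 to 1.03) with a limma adjusted p of 0.332. The log2 difference of *Trpc1* was 0.30 without knockout 2, 0.87 after rescaling to TPM and 1.28 with a pseudocount of 0.1. *Trpc1* held over 90% of the FPKM of the 5 TRPC genes in the table in replicates 2 and 3 of both genotypes, and 57.1% and 29.0% in the replicate 1 libraries, where *Trpc2*, at 0.07 and 0.66 FPKM, made up the rest in the main. Of the TRP, polycystin and Piezo list 7 other genes were tested and 0 were called without or with the block. In replicates 2 and 3 alone 0 of the 7 were called lower and 4 higher, against 17.2% and 11.9% of all tested genes. *Piezo1*, a mechanically gated channel and the most abundant gene of the list, had 78.7, 73.6 and 82.1 FPKM in the controls and 99, 93 and 86.2 FPKM in the knockouts, with a limma adjusted p of 0.303.

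**Figure D3:**
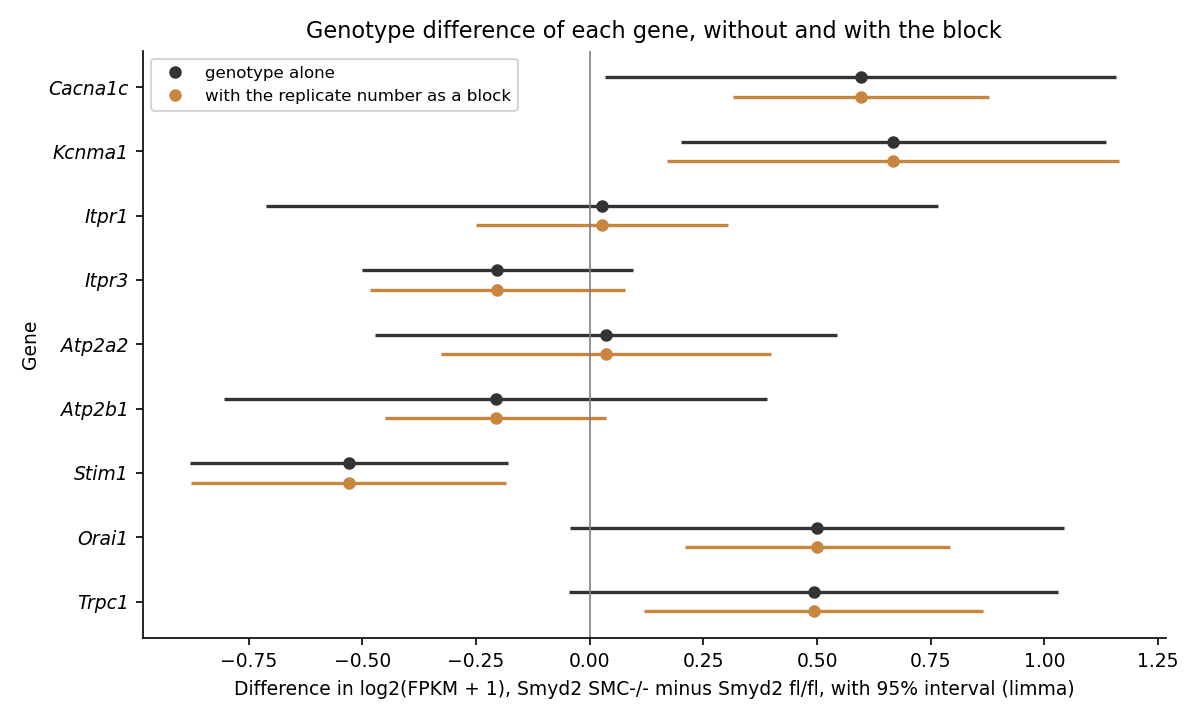
Difference in log2(FPKM + 1), Smyd2 SMC-/- minus Smyd2 fl/fl, of the 9 measured genes, with the 95% interval from limma in the fit of genotype alone (black) and of the blocked fit (orange); *Kcnma1* and *Trpc1* come from the fit with no minimum. The intervals are of single genes and unadjusted: *Stim1* lies below 0 and *Cacna1c* and *Kcnma1* above 0 in both fits, and *Orai1* and *Trpc1* lie above 0 with the block.

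Libraries with the same number were set side by side as pairs, although the data do not tell which libraries of replicates 2 and 3 belong together. *Cacna1c*, *Kcnma1*, *Orai1* and *Trpc1* were higher and *Itpr3*, *Atp2b1* and *Stim1* lower in the knockouts in all 3 pairs, while *Itpr1* and *Atp2a2* were lower in the replicate 1 pair and higher in the other 2. All of these but *Kcnma1* and *Trpc1* were tested genes, and 55.1% of all tested genes had 1 sign in all 3 pairs. For *Kcnma1* the difference was 1.11 on the log2 scale in the replicate 1 pair against 0.24 and 0.65 in the others. For *Trpc1* the replicate 1 pair had the smallest difference, 0.18 against 0.73 and 0.56.

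**Figure D4:**
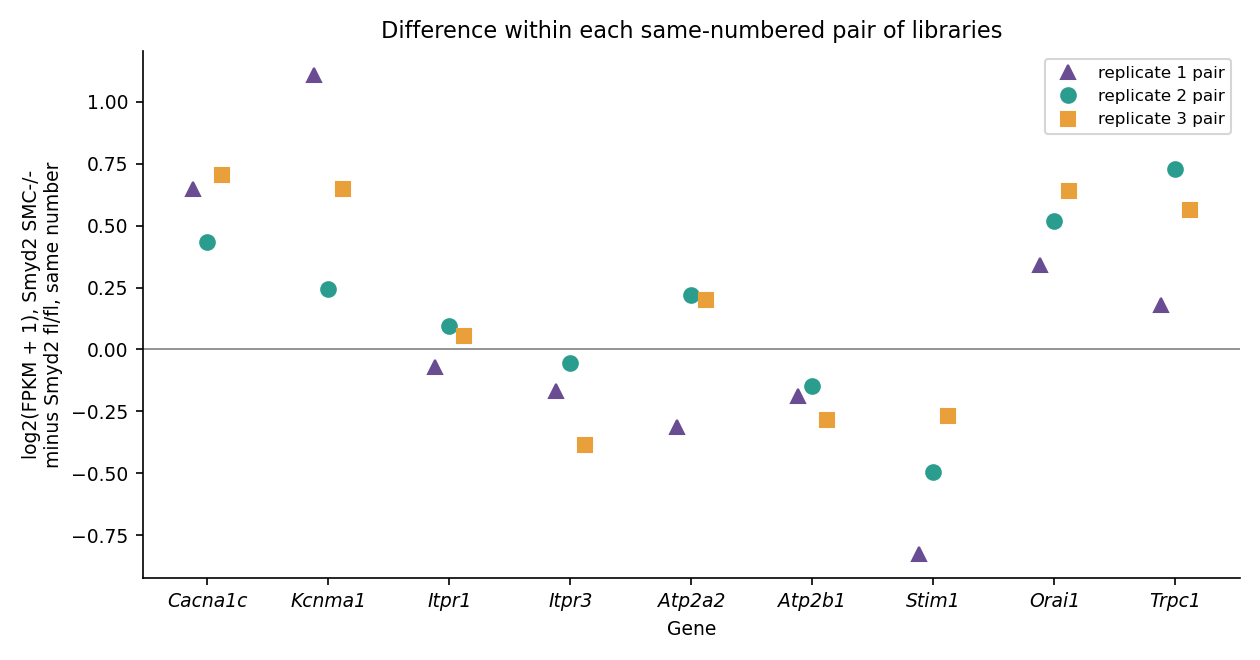
Difference in log2(FPKM + 1) between the Smyd2 SMC-/- and the Smyd2 fl/fl library of the same replicate number, for each of the 9 measured genes, with the pair given by symbol and colour. For 7 genes, among them *Kcnma1* and *Trpc1* under the minimum, the 3 pairs lie on one side of 0, as for 55.1% of all tested genes. For *Itpr1* and *Atp2a2* the replicate 1 pair (-0.07 and -0.31) lies below 0 and the others above.

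In the fixed calcium lists, 116 genes besides the members had a row and 68 were tested, with a median log2 difference of 0.06. Without the block 1 of the 68 was called lower and 1 higher, against 1.21% and 1.23% of all tested genes. The gene called lower belonged to the mitochondrial uptake list, was not *Mcu* and is not named here. With the block 1 was lower and 6 were higher, against 5.72% and 4.72% of all tested genes. The mitochondrial uniporter pore *Mcu* had non-overlapping groups, with 32.6, 25.8 and 24.8 FPKM against 20.7, 20.9 and 18.6 FPKM and a limma adjusted p of 0.164, or 0.0418 in replicates 2 and 3 alone. Of the 11 tested genes of its list, 6 were lower without overlap and 0 higher, against 15% and 13.1% of all tested genes. In replicates 2 and 3 alone 5 of the 11 were called lower and 0 higher, against 17.2% and 11.9% of all tested genes.

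*Rcn3*, a calcium-binding protein of the secretory pathway, stood at 40.1, 48.6 and 47.8 FPKM in the controls and at 110, 105 and 92.3 FPKM in the knockouts. It rose by 1.16 on the log2 scale, with a limma adjusted p of 0.0135, or 0.0177 under the block. Leaving out library 2 or 3 of either genotype ended the call, with limma adjusted p from 0.0626 to 0.0836. Its relative *Rcn1* stood at 17.5, 28.1 and 26.4 FPKM against 49.1, 48.7 and 44.4 FPKM, and was called with the block (log2 difference 0.98, limma adjusted p = 0.0583 without and 0.0359 with it). *Rcan2*, a regulator of the calcium-dependent phosphatase calcineurin, was not called in either fit, at 0.82, 1.66 and 1.31 FPKM in the controls and 1.93, 20.7 and 32.4 FPKM in the knockouts. Only the replicate 2 and 3 libraries of the knockouts were high, and the log2 difference of 2.52 had a limma adjusted p of 0.176, or 0.0671 under the block. In replicates 2 and 3 alone *Rcan2* was called, with a log2 difference of 3.44 and a limma adjusted p of 0.0000834.

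**Figure D5:**
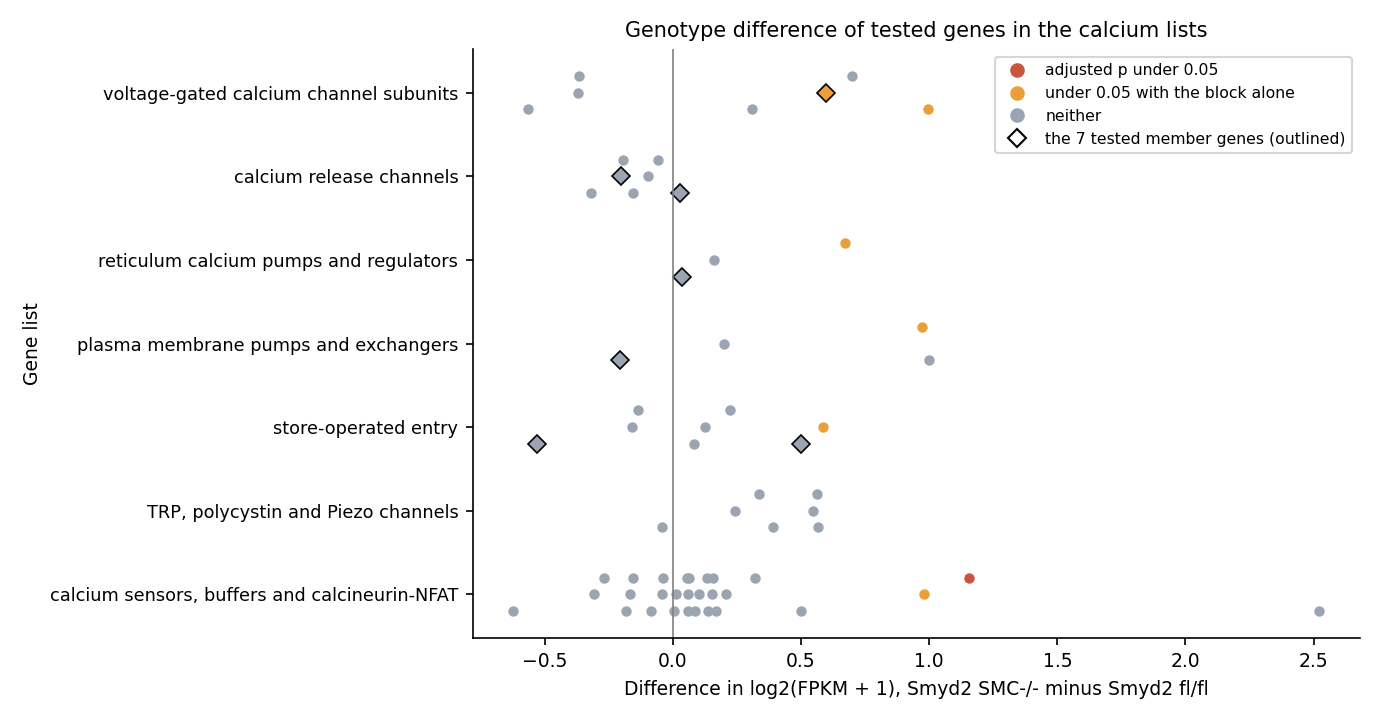
Difference in log2(FPKM + 1), Smyd2 SMC-/- minus Smyd2 fl/fl, of each tested gene in 7 of the 8 calcium lists with tested genes, the mitochondrial list not drawn, coloured by the limma call and with the 7 tested members as outlined diamonds. *Rcn3* (1.16) is called in the fit of genotype alone, and the largest difference drawn, *Rcan2* (2.52), is not called without or with the block.

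For the 3 of the 7 tested members with the lowest limma p, the tested genes with the most similar pattern over the 6 libraries were listed among 8606 genes of at least 5 FPKM. They were *Cited2*, *Cdc37* and *Osbp* for *Stim1* (Pearson r of 0.996, 0.995 and 0.995), *Tstd2*, *Zzz3* and *Arfgef2* for *Cacna1c* (0.999, 0.990 and 0.990), and *Mex3c*, *Ncstn* and *Naglu* for *Orai1* (1.00, 0.999 and 0.998). An r of 0.95 or more over the 6 libraries was reached by 133, 75 and 139 of the 8606 genes for *Stim1*, *Cacna1c* and *Orai1*.

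Promoter sequence was looked at as a feature that the choice of genes did not use. RefSeq promoters of GRCm38.p6, 250 bases before to 50 after a start, were matched by symbol for 8 of the 10 genes, with 11 starts, and *Itpr1* and *Atp2a2* had no entry. At least 30 CpG dinucleotides were found in 7 of the 11 promoters, from 6 genes, against 11.7% of all 32851 promoters. *Cacna1c* had 3 starts with 3, 57 and 7 CpG, and *Kcnmb1* had 1 CpG. The CArG box, searched on both strands, was in 0 of the 11 and in 1.63% of all promoters, which says only that its letters are not in these windows. The 100 bases from 150 to 51 before the start are shown, with CG in capitals, for *Stim1* (chr7:102267669-102267768, plus strand) and *Itpr3* (chr17:27057154-27057253, plus strand), the 2 tested members whose groups did not overlap; neither stretch meets an exon of the GENCODE annotation.
Stim1: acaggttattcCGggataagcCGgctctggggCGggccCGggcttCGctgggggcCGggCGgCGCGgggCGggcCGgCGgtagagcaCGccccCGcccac
Itpr3: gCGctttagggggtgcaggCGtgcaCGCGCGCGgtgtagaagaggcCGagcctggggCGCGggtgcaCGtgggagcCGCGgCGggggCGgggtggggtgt
These stretches hold 14 CG each, and the whole 300 bases 38 and 30.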

How the data were processed

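The authors used SOAPnuke to filter reads and HISAT and Bowtie2 for mapping, calculated expression with RSEM, and deposited FPKM values rounded to 2 decimals for the 6 libraries. Versions and genome build are not given in the sources used here. Members and gene lists were chosen with earlier results of these data known. From FPKM, log2(FPKM + 1) was computed, genes with a mean under 0.5 FPKM were set aside, and genotypes were compared with limma 3.58.1 (trend and robust settings, R 4.3.3) and Benjamini-Hochberg adjustment over 12565 genes. The fits were tested on simulated data.

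The methods name no block. The labels number the replicates alike in both genotypes, and deviations from the group means correlated across genes by 0.615, 0.460 and 0.527 between same-numbered libraries. Each was over 0.1, and by that rule the numbers were taken to pair the libraries. Control 2 correlated as well with knockout 3 (0.461), and control 3 with knockout 2 (0.439), so that the values set replicate 1 apart and do not tell a pairing of replicates 2 and 3. The blocked fit is printed where it changes the call of a gene whose test is given. Depth was estimated from 4343 genes with a single listed transcript: between 71.7% and 73.3% of the low values came within 0.15 of a whole number of fragments, against 30% expected by chance. These fragment numbers are approximate.

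Within-family shares were compared with two-sided exact permutation tests, adjusted over 8 shares. Named genes are *Smyd2*, the members, family paralogs, markers and the genes most similar to 3 members. Also named are 6 genes of the calcium lists, outside the mitochondrial list, that were called without or with the block. *Cacna2d1*, *Cacnb3*, *Slc8a1*, *Saraf*, *Piezo1*, *Mcu*, *Rcan2* and the BK and potassium channel subunits, ryanodine receptors and *Pln* were named after their values were seen. Gene positions come from GENCODE M21 (GRCm38), matched by RefSeq transcripts, and promoters from RefSeq. Alternatives were a pseudocount of 0.1, no minimum or 1 FPKM, the blocks, other scalings, other cutoffs, and subsets of libraries. Other steps used pandas 2.3.3, matplotlib 3.10.9 and scipy 1.17.1 under Python 3.11.15.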

Additional observations from a re-analysis of the deposited data

How the results depend on the processing

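The direction of the member differences was kept in 116 of 122 alternative fits and that of the family shares in 53 of 56. *Smyd2* and the 6 called genes of the calcium lists outside the mitochondrial list kept theirs in 98 of 98. The exceptions came from leaving out a library. The log2 difference of *Itpr1* then ran from -0.19 to 0.30 and that of *Atp2a2* from -0.10 to 0.27. The difference in share, in percentage points, ran from -8.07 to 0.417 for *Itpr3*, from -22.0 to 10.8 for *Trpc1* and from -0.56 to 6.94 for *Cacna1c*.

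No member was called in the fit of genotype alone. With the replicate block 0 members were called lower and 1 higher. In replicates 2 and 3 alone, and with the block for replicate 1 against replicates 2 and 3 that was chosen after seeing the data, 1 was lower and 2 were higher. The other settings, and each left-out library, called 0 members.

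Of all tested genes 152 were called lower and 154 higher. The counts were 719 and 593 with the replicate block, 2156 and 1494 in replicates 2 and 3 alone, 1398 and 1152 with the block for replicate 1, 99 and 247 after rescaling to TPM, and 26 and 27 at the cutoffs of the methods. Leaving out a library gave 16 to 313 lower, the most without Smyd2 SMC-/- replicate 1, and 16 to 373 higher, the most without the same library. Rescaling to TPM also moved the median log2 difference of all tested genes by 0.11, to 0.10, and turned the direction of no member.

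Of the 68 other calcium genes 1 was lower and 1 higher. The counts were 1 and 6 with the replicate block, 7 and 13 in replicates 2 and 3 alone, 5 and 10 with the block for replicate 1, 0 and 4 after rescaling to TPM, and 0 and 0 at the cutoffs of the methods. With no minimum 0 were lower. Leaving out a library gave 0 to 1 lower and 0 to 6 higher, the most without Smyd2 SMC-/- replicate 1. The cause of these shifts was not tested. Of the named genes, the replicate block changed the call of *Smyd2*, *Cacna1c*, *Cacna1a*, *Orai2*, *Tmem165*, *Slc24a3*, *Rcn1*, *Cd34*, *Ly6a* and *Col14a1*, and of no other member, family gene or marker.

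Alternatives that need counts were not run, since the values are FPKM, and the ratio of *Kcnmb1* to *Kcnma1* was not computed. At the estimated depth *Kcnma1* and *Trpc1* rest on fewer than 100 fragments in each library, and no outlier test was made in groups of 3.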
